A study of Mus musculus with 8 samples.

Results

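The miR-10, miR-99/100 and miR-125 miRNAs form an old family of related small RNAs, of which 7 mature 5p strands were followed here in mouse sperm. The members were chosen by name, as mmu-miR-10a-5p, mmu-miR-10b-5p, mmu-miR-100-5p, mmu-miR-99a-5p, mmu-miR-99b-5p, mmu-miR-125a-5p and mmu-miR-125b-5p. They are 7 of the 952 miRNA rows that held a count and of the 226 miRNAs with enough counts to be tested, and all 7 passed that count filter. Small RNA was sequenced from sperm of 4 control and 4 ethanol samples, in a series whose title places the sperm a month after alcohol exposure had stopped. The labels give tissue and treatment alone, so strain, age, dose, route and length of exposure are not given in the sources used here. Nor do they tie each sample to an animal of its own, and the p-values therefore reflect spread among these libraries, which may be technical.

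A miRNA guides Argonaute proteins to messenger RNAs that pair with its seed, the bases near its 5′ end, and lowers their output. Genes for miR-10 sit inside Hox gene clusters, while miR-99, miR-100 and miR-125 genes sit beside let-7 genes in clusters that are old in animals. miR-99 and miR-100 are known for restraining mTOR and insulin-like growth factor signalling, miR-125 for repressing Lin28 and factors of cell death, and miR-10 for acting on Hox genes. Mature sperm make little RNA of their own, and much of their miRNA content is set in the testis and altered during passage through the epididymis.

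The mature sequences show why the 7 are grouped: they hold 3 seeds, and relatives with the same seed differ by few bases elsewhere. They are taken from RefSeq (GRCm38.p6), where all 7 names matched, and are written 5′ to 3′ with the seed, bases 2 to 8, in capitals.
mmu-miR-10a-5p: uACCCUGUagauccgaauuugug
mmu-miR-10b-5p: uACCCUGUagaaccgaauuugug
mmu-miR-99a-5p: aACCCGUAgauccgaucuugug
mmu-miR-99b-5p: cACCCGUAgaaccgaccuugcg
mmu-miR-100-5p: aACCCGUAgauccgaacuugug
mmu-miR-125a-5p: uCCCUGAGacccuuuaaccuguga
mmu-miR-125b-5p: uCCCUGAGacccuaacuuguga

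Positions are counted from the 5′ end, with the base of the first-named miRNA written first. mmu-miR-10a-5p and mmu-miR-10b-5p, both 23 bases long, differ by U12A alone. mmu-miR-99a-5p and mmu-miR-100-5p, both 22 bases long, differ by U16A alone, and mmu-miR-99b-5p differs from mmu-miR-99a-5p by A1C, U11A, U16C and U21C. The miR-125 strands share their first 13 bases and last 5 bases and are 24 bases (mmu-miR-125a-5p) and 22 bases (mmu-miR-125b-5p) long. The rule by which reads with mismatches or trimmed ends were assigned was not given in the sources used here. The division of counts between mmu-miR-10a-5p and mmu-miR-10b-5p, and between mmu-miR-99a-5p and mmu-miR-100-5p, is therefore uncertain.

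In GRCm38.p6 the gene of mmu-miR-10a-5p lies in the Hoxb cluster, with the mature strand at chr11:96317186-96317208 (+) and no other gene over it in the GENCODE annotation of that build. mmu-miR-10b-5p, of the Hoxd cluster, is at chr2:74726074-74726096 (+) in introns of Hoxd3 and Hoxd4 transcripts. mmu-miR-99b-5p at chr17:17830194-17830215 (+), in an intron of Spaca6, is followed by let-7e and by mmu-miR-125a-5p at chr17:17830817-17830840 (+), which overlaps an exon of a Spaca6 transcript. These 3 lie within 647 bp. mmu-miR-99a-5p at chr16:77598940-77598961 (+) and a copy of mmu-miR-125b-5p at chr16:77646279-77646300 (+) flank let-7c-1 within 47.4 kb, both in introns of the noncoding host Mir99ahg. mmu-miR-100-5p at chr9:41531437-41531458 (+) and the other copy of mmu-miR-125b-5p at chr9:41581940-41581961 (+) lie 50.5 kb apart, in introns of the noncoding gene 3110039I08Rik. The 2 copies encode the same mature strand, so its counts cannot be divided between chromosomes 9 and 16.

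The libraries held 3481865 to 6975180 counts, of which miRNAs made up 16.3 to 26.7% in controls and 6.23 to 9.90% in ethanol libraries. Levels are given as CPM, counts set against a common library total. Transcripts that define sperm were present in all 8 libraries, and 10 of them summed to 527 to 690 CPM in controls and 215 to 575 CPM in ethanol libraries. The summed CPM of 11 epididymal epithelium genes was 397 to 674 in controls and 869 to 11482 in ethanol libraries, highest in ethanol replicate 2. Summed stromal and muscle miRNAs were at 7125, 39892, 2131 and 10094 CPM in controls 1 to 4, highest in control replicate 2, against 1124 to 5111 CPM in ethanol libraries. The ethanol samples carry codes of 2 styles in their descriptions, and the meaning of the styles was not given in the sources used here.

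The family was unequally abundant, and its order was led by mmu-miR-125b-5p in both groups. CPM were scaled by the trimmed mean of M values (TMM), and since the strands are 22 to 24 bases long they were not divided by length. In controls the means ran from 7134 CPM for mmu-miR-125b-5p through 2906 for mmu-miR-10a-5p, 1261 for mmu-miR-10b-5p, 370 for mmu-miR-125a-5p, 203 for mmu-miR-99a-5p and 30.5 for mmu-miR-99b-5p to 15.8 for mmu-miR-100-5p. Among neighbours in that order only mmu-miR-125a-5p with mmu-miR-99a-5p, and mmu-miR-100-5p with mmu-miR-99b-5p, had overlapping ranges over the 4 control libraries. In ethanol libraries mmu-miR-99a-5p (mean 87.2 CPM) stood above mmu-miR-125a-5p (70.4 CPM), with overlapping ranges. There the ranges of mmu-miR-125b-5p and mmu-miR-10a-5p, of mmu-miR-10a-5p and mmu-miR-10b-5p, and of mmu-miR-100-5p and mmu-miR-99b-5p also overlapped.

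**Figure D1:**
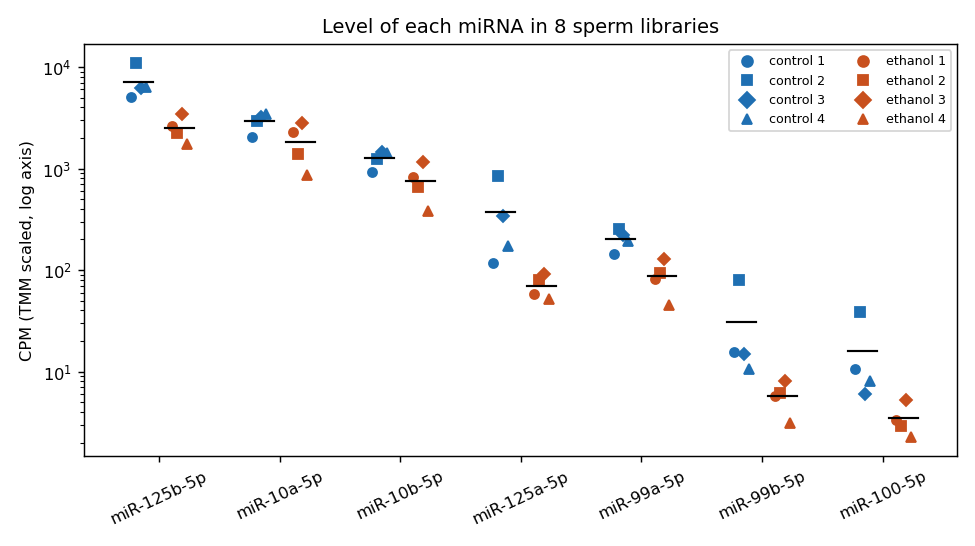
Level of each of the 7 miRNAs in each library (vertical log axis, TMM-scaled CPM), with control libraries in blue, ethanol libraries in orange and the mean of each group as a bar. Every ethanol point of miR-125b-5p, miR-125a-5p, miR-99a-5p, miR-99b-5p and miR-100-5p lies below every control point, and control replicate 2 (blue square) stands above the other controls for miR-125a-5p, miR-99b-5p and miR-100-5p.

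The design compares ethanol with control sperm. As counts among all RNA features the miR-125, miR-99 and miR-100 strands were lower in every ethanol library than in every control. Set against miRNAs alone, mmu-miR-99a-5p and mmu-miR-125b-5p were at 0.29 ± 0.42 and 0.039 ± 0.31 on the log2 scale (± SE). With control replicate 2 also left out, a fit added after seeing the data, mmu-miR-100-5p and mmu-miR-99b-5p were at 0.045 ± 0.39 and 0.083 ± 0.44. Each of these values was smaller than its SE. The miR-10 strands overlapped between groups. With edgeR's quasi-likelihood test and Benjamini-Hochberg adjustment over 13515 features, 4 of 7 members were called lower at an adjusted p under 0.05 (57.1%) and none higher. Over the same fit 1.75% of all features and 39.4% of the 226 tested miRNAs were called lower. For 5 members (71.4%) every ethanol library was below every control library, as it was for 41.6% of the tested miRNAs. The median log2 fold change was -1.51 over the 7 members, -1.52 over all tested miRNAs and -0.01 over all features, so the members' median lay close to that of miRNAs as a whole. Scaling by library totals in place of TMM moved the median of all features to 0.25, kept all 7 members below 0 and left 2 called. CPM are relative to the library total. In bulk samples like these, fewer cells of a type, less RNA per cell and more RNA of other kinds cannot be told apart.

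mmu-miR-125b-5p, the most abundant member and a repressor of Lin28 and of death-promoting genes, was at 5054, 11004, 6135 and 6342 CPM in controls 1 to 4 and at 2592, 2238, 3467 and 1724 CPM in ethanol replicates 1 to 4. All ethanol libraries were below all controls, and control replicate 2 was the highest. The mean was 7134 ± 2641 CPM in controls and 2505 ± 734 CPM in ethanol libraries (SD, n = 4 each, also below), and it fell by 1.51 ± 0.45 on the log2 scale (± SE, as for all log2 fold changes here; edgeR adjusted p = 0.0427).

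mmu-miR-125a-5p shares that seed but was far less abundant. Its levels were 117, 852, 339 and 174 CPM in controls 1 to 4 and 58.2, 80.0, 91.5 and 52.1 CPM in ethanol replicates 1 to 4. The controls spread over a 7.28-fold range and the ethanol libraries over a 1.76-fold range, without overlap between the groups. The mean was 370 ± 334 CPM against 70.4 ± 18.5 CPM, a fall by 2.40 ± 0.59 on the log2 scale (edgeR adjusted p = 0.0287).

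The miR-99 and miR-100 strands share a seed and are linked to mTOR and Igf1r. mmu-miR-99a-5p was at 143, 254, 222 and 191 CPM in controls and 82.0, 92.6, 129 and 45.0 CPM in ethanol libraries. Its groups did not overlap, and ethanol replicate 3 came nearest to the lowest control. The log2 difference of -1.22 ± 0.44 did not pass the threshold (203 ± 47.0 against 87.2 ± 34.7 CPM; edgeR adjusted p = 0.0714).

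mmu-miR-99b-5p, a cluster partner of mmu-miR-125a-5p, was at 15.7, 80.7, 14.98 and 10.6 CPM in controls and at 5.73, 6.10, 8.11 and 3.11 CPM in ethanol libraries. Control replicate 2 stood far above the other controls, whose lowest value was still above the highest ethanol value. The mean was 30.5 ± 33.5 against 5.76 ± 2.05 CPM, and the level fell by 2.40 ± 0.60 on the log2 scale (edgeR adjusted p = 0.0292).

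mmu-miR-100-5p, the rarest member with 13 to 149 counts a library, was at 10.7, 38.5, 5.99 and 8.07 CPM in controls and at 3.38, 2.95, 5.28 and 2.25 CPM in ethanol libraries. The groups were separated narrowly, by control replicate 3 and ethanol replicate 3, and control replicate 2 was again the highest. It fell by 2.19 ± 0.55 on the log2 scale (15.8 ± 15.3 against 3.46 ± 1.30 CPM; edgeR adjusted p = 0.0292).

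The miR-10 strands, encoded within Hox clusters, were the members with the smallest differences. mmu-miR-10a-5p was at 2033, 2909, 3246 and 3437 CPM in controls and at 2304, 1385, 2784 and 861 CPM in ethanol libraries, of which 2 of 4 were below the lowest control. mmu-miR-10b-5p was at 926, 1254, 1457 and 1409 CPM in controls and at 824, 660, 1169 and 381 CPM in ethanol libraries, of which 3 of 4 were below the lowest control. Unlike for the miR-125 strands, control replicate 2 was not the highest control for either. The log2 differences of -0.66 ± 0.47 (mmu-miR-10a-5p, edgeR adjusted p = 0.326) and -0.73 ± 0.45 (mmu-miR-10b-5p, edgeR adjusted p = 0.262) did not pass the threshold, which does not show that their levels were alike.

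These calls depended on which libraries were in the fit. In control replicate 2 the level was 5.14 times that of the next highest control for mmu-miR-99b-5p, 3.59 times for mmu-miR-100-5p, 2.51 times for mmu-miR-125a-5p and 1.74 times for mmu-miR-125b-5p, but 1.14 times for mmu-miR-99a-5p, 0.861 times for mmu-miR-10b-5p and 0.846 times for mmu-miR-10a-5p. Without that library the control means were 13.8 ± 2.78 CPM for mmu-miR-99b-5p, 8.26 ± 2.38 CPM for mmu-miR-100-5p and 210 ± 115 CPM for mmu-miR-125a-5p (SD, n = 3). The log2 fold changes were then -1.36 for mmu-miR-99b-5p, -1.34 for mmu-miR-100-5p, -1.69 for mmu-miR-125a-5p and -1.32 for mmu-miR-125b-5p, with edgeR adjusted p from 0.0715 to 0.120. All 7 members still lay below 0, but the differences of mmu-miR-100-5p, mmu-miR-125a-5p and mmu-miR-99b-5p were then smaller by more than 1.5-fold on the linear scale.

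No member was called when any 1 of the 4 controls was left out (edgeR, 5 of 7 at an unadjusted p under 0.05 each time). Without control 1, 3 or 4 the log2 fold change of mmu-miR-99b-5p was -2.74, -2.74 and -2.79. Its unadjusted edgeR p was then 0.00035, 0.00038 and 0.00025, against 0.0012 with all libraries. For mmu-miR-125b-5p it was 0.0073, 0.0103 and 0.0091, against 0.0046. The adjustment over all features then left 3, 7 and 10 features called, against 1842 with all libraries. Over the 8 fits with 1 library left out the edgeR adjusted p ran from 0.00465 to 0.0953 for mmu-miR-125a-5p, 0.00963 to 0.151 for mmu-miR-99b-5p, 0.0047 to 0.0953 for mmu-miR-100-5p and 0.00932 to 0.12 for mmu-miR-125b-5p. With ethanol replicate 4 left out mmu-miR-125a-5p alone was called. Leaving out ethanol replicate 2 ended the calls of mmu-miR-99b-5p (adjusted p = 0.151) and mmu-miR-100-5p (0.0952) and made that of mmu-miR-99a-5p (0.0366), and leaving out ethanol replicate 1 ended that of mmu-miR-125b-5p (0.0697). Within the ethanol libraries of each code style the direction was the same: against all controls, the pair of replicates 3 and 4 gave -2.49 for mmu-miR-99b-5p and -1.51 for mmu-miR-125b-5p, and the pair of replicates 1 and 2 gave -2.51 and -1.71. With replicates 3 and 4 alone no member was called (4 of 7 at an unadjusted p under 0.05), and with replicates 1 and 2 alone 4 were. With control replicate 2 and ethanol replicate 2 both left out, an alternative chosen after seeing the data, mmu-miR-99b-5p (-1.34, edgeR adjusted p = 0.0187), mmu-miR-100-5p (-1.23, 0.0388) and mmu-miR-125a-5p (-1.71, 0.0118) were called.

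**Figure D2:**
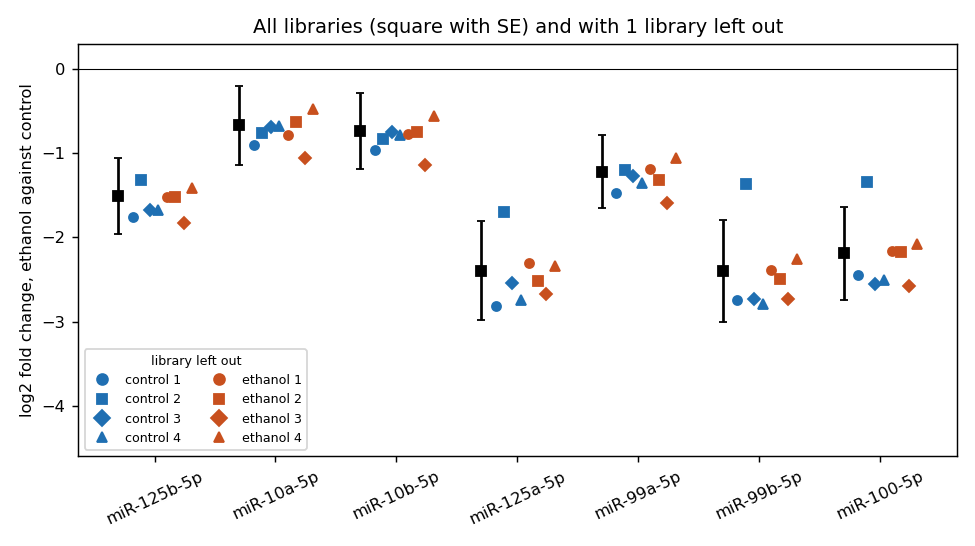
Log2 fold change of ethanol against control for each miRNA (vertical axis), from all 8 libraries (black square with its SE) and with the library of the legend left out. Leaving out control replicate 2 (blue square) moves miR-99b-5p from -2.40 to -1.36 and miR-100-5p from -2.19 to -1.34, while every value stays below 0.

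Control replicate 2 also held other miRNAs at raised levels. Of 108 miRNAs with a mean count of at least 100 and no 0, 23 (21.3%) were more than 2-fold above the next highest control there, and the median ratio was 1.13. The largest ratios were those of mmu-miR-199a-5p (11.5), mmu-let-7e-5p (7.56), mmu-miR-145a-5p (7.46) and mmu-miR-199a-3p (6.78), of which the miR-199a strands and miR-145a are known from fibroblasts and smooth muscle. Stromal and muscle miRNAs (4 listed, none at 0 in any library) were highest in that library, and 3 of the 4 were called lower in ethanol libraries, in a fit that called 39.4% of all tested miRNAs lower. Stromal transcripts (4 genes) summed to 108 CPM there and to 37.3 to 54.7 CPM in the other controls, against 15.7 to 52.9 CPM in ethanol libraries, with none of the 4 called. Blood miRNAs (4 of 5 listed were analysed) summed to 74.1 to 936 CPM in controls and 24.4 to 96.6 CPM in ethanol libraries, and blood transcripts (8 genes) to 19.9 to 40.1 CPM and 3.02 to 21.3 CPM. All 3 tested blood miRNAs and 2 of 4 tested blood transcripts, Hba-a1 and Hba-a2, were called lower, against 39.4% of tested miRNAs and 0.153% of mRNA exon features. With control replicate 2, or any other 1 of the 4 controls, left out, edgeR called no miRNA lower (121 to 155 at an unadjusted p under 0.05 in either direction), so the calls of the stromal and blood miRNAs ended. Those of Hba-a1 and Hba-a2 ended too (adjusted p from 0.0615 to 0.0953), and also without ethanol replicates 1 and 2 (0.0592 and 0.0692). Epithelial miRNAs (4 of 5 listed were analysed) summed to 1315 to 4722 CPM in controls and 1062 to 3708 CPM in ethanol libraries with none called, and none of the 10 sperm transcripts was called. The part of these cell types in the lower levels of the family was not tested.

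Relative to miRNAs alone no member was called, and the log2 fold changes of 4 members were above 0, those of mmu-miR-99a-5p and mmu-miR-125b-5p by less than their SE. When only miRNA rows entered the fit, which centres the comparison on miRNAs, the log2 fold change was 0.71 ± 0.38 for mmu-miR-10a-5p, 0.67 ± 0.38 for mmu-miR-10b-5p, 0.29 ± 0.42 for mmu-miR-99a-5p and 0.039 ± 0.31 for mmu-miR-125b-5p. It was -0.65 ± 0.61 for mmu-miR-99b-5p, -0.54 ± 0.50 for mmu-miR-100-5p and -0.66 ± 0.58 for mmu-miR-125a-5p. None of the 7 was called in that edgeR fit (adjusted p from 0.598 to 0.975, and none at an unadjusted p under 0.05), in which 0.415% of 241 miRNAs were called. miRNAs as a class held a lower share of counts in all 4 ethanol libraries than in any control, as given above. Of the 226 tested miRNAs 191 had a lower log2 fold change than mmu-miR-10a-5p, 188 than mmu-miR-10b-5p, 148 than mmu-miR-99a-5p and 114 than mmu-miR-125b-5p, against 26 for mmu-miR-100-5p, 16 for mmu-miR-125a-5p and 14 for mmu-miR-99b-5p. With miRNA rows alone and control replicate 2 left out, mmu-miR-100-5p and mmu-miR-99b-5p were at 0.045 ± 0.39 and 0.083 ± 0.44 and mmu-miR-125a-5p at -0.20 ± 0.54.

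**Figure D3:**
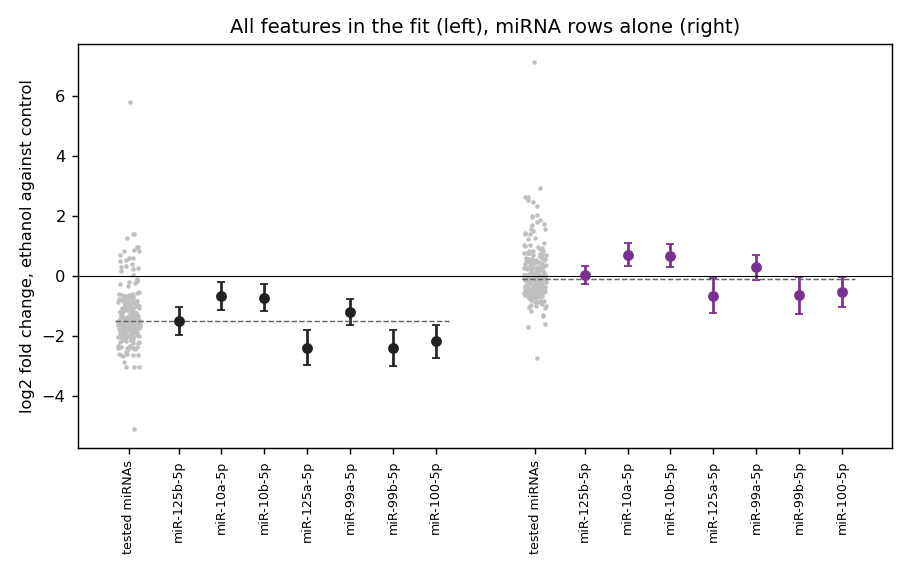
Log2 fold change of ethanol against control (vertical axis) for all tested miRNAs (grey points, dashed line at their median) and for the 7 miRNAs (points with SE), with all features in the fit on the left and miRNA rows alone on the right. On the left miR-10a-5p and miR-10b-5p lie above the median of miRNAs (-1.52) and miR-125a-5p, miR-99b-5p and miR-100-5p below it, and on the right 4 of the 7 lie above 0.

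As a share of miRNA counts the family made up 3.92, 5.43, 5.93 and 5.19% in controls 1 to 4 and 6.20, 9.77, 5.87 and 4.46% in ethanol replicates 1 to 4. The groups overlapped, and ethanol replicate 2 held the highest share (95% Wilson interval 9.65 to 9.90%, counting error only). As a share of all deposited counts it made up 1.003 ± 0.326% in controls (0.700 to 1.45%) and 0.518 ± 0.147% in ethanol libraries (0.298 to 0.609%), without overlap, given as a description with no test. Within the family mmu-miR-125b-5p held 59.1 ± 6.20% of counts in controls and 48.9 ± 5.47% in ethanol libraries, and mmu-miR-10a-5p 25.1 ± 5.38% and 33.7 ± 5.06%. Those ranges overlapped between the groups. The ratio of mmu-miR-10a-5p to mmu-miR-125b-5p counts, chosen after the values were seen and not tested, was 0.402, 0.264, 0.529 and 0.542 in controls and 0.889, 0.619, 0.803 and 0.4996 in ethanol libraries. Only ethanol replicate 4 lay within the range of the controls.

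**Figure D4:**
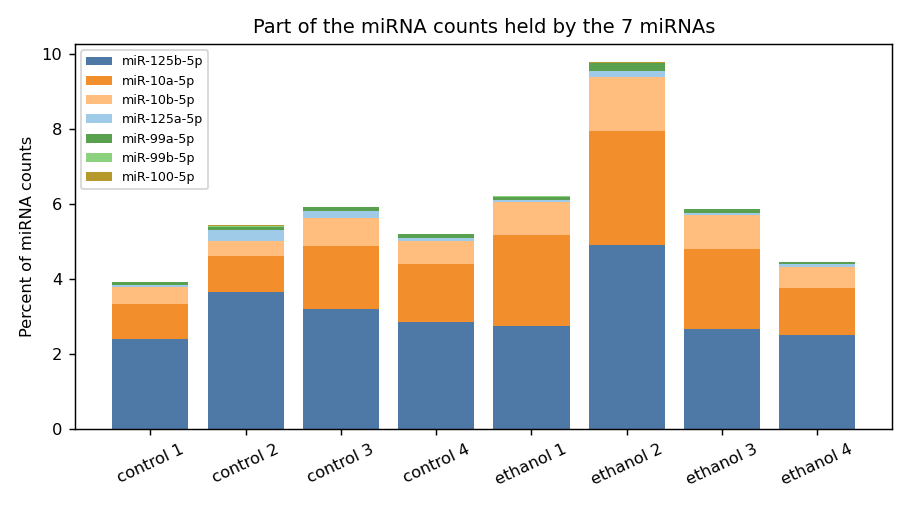
Percent of each library's miRNA counts held by the 7 miRNAs, stacked by miRNA, for the 4 control and 4 ethanol libraries. The stacks run from 3.92% (control replicate 1) to 9.77% (ethanol replicate 2), and miR-125b-5p, miR-10a-5p and miR-10b-5p make up nearly all of each.

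Ratios of relatives within a library do not depend on how libraries were scaled. None of the 5 ratios tested passed the threshold of 0.05 (two-sided exact permutation tests over 70 assignments, smallest possible p 0.0286, adjusted over the 5). A single ratio could not have passed it alone after that adjustment, even with fully separated groups. These tests therefore do not show that the ratios were alike. mmu-miR-10a-5p to mmu-miR-10b-5p was the steadiest, at 2.19, 2.32, 2.23 and 2.44 in controls and 2.79, 2.10, 2.38 and 2.26 in ethanol libraries (log2 difference 0.047, exact permutation p = 0.714, adjusted 0.886). The division of counts between these near-identical strands is uncertain, as given above, and its part in this steadiness was not tested. mmu-miR-99a-5p to mmu-miR-100-5p was 13.4, 6.58, 37.1 and 23.7 in controls and 24.3, 31.4, 24.5 and 20 in ethanol libraries (log2 difference 0.55, exact permutation p = 0.429, adjusted 0.714). Control replicate 2 was the lowest library there, and the controls were the more spread group. mmu-miR-125a-5p to mmu-miR-125b-5p was 0.0231, 0.0774, 0.0553 and 0.0275 in controls and 0.0224, 0.0357, 0.0264 and 0.0302 in ethanol libraries (log2 difference -0.52, exact permutation p = 0.314, adjusted 0.714).

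Partners of one cluster were compared in the same way. Within the chromosome 17 cluster mmu-miR-99b-5p to mmu-miR-125a-5p was 0.134, 0.0947, 0.0442 and 0.0607 in controls and 0.0985, 0.0763, 0.0887 and 0.0598 in ethanol libraries (log2 difference 0.069, exact permutation p = 0.886, adjusted 0.886). mmu-let-7e-5p to mmu-miR-99b-5p was 1.75, 2.71, 1.93 and 2.37 against 2.51, 2.14, 2.09 and 3.50 (log2 difference 0.20, exact permutation p = 0.429, adjusted 0.714). Control replicate 2 lay within the range of the other libraries for both ratios. The ratio of mmu-miR-99b-5p to mmu-miR-99a-5p, seed relatives on different chromosomes, was chosen after the values were seen and not tested. It was 0.318 in control replicate 2, 0.0552 to 0.109 in the other controls and 0.0628 to 0.0699 in ethanol libraries. mmu-miR-100-5p, a seed relative on chromosome 9, was also raised in control replicate 2. Its level there was 3.59 times the next highest control, against 5.14 times for mmu-miR-99b-5p and 1.14 times for mmu-miR-99a-5p. A raised level in that library was thus not particular to the chromosome 17 cluster.

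**Figure D5:**
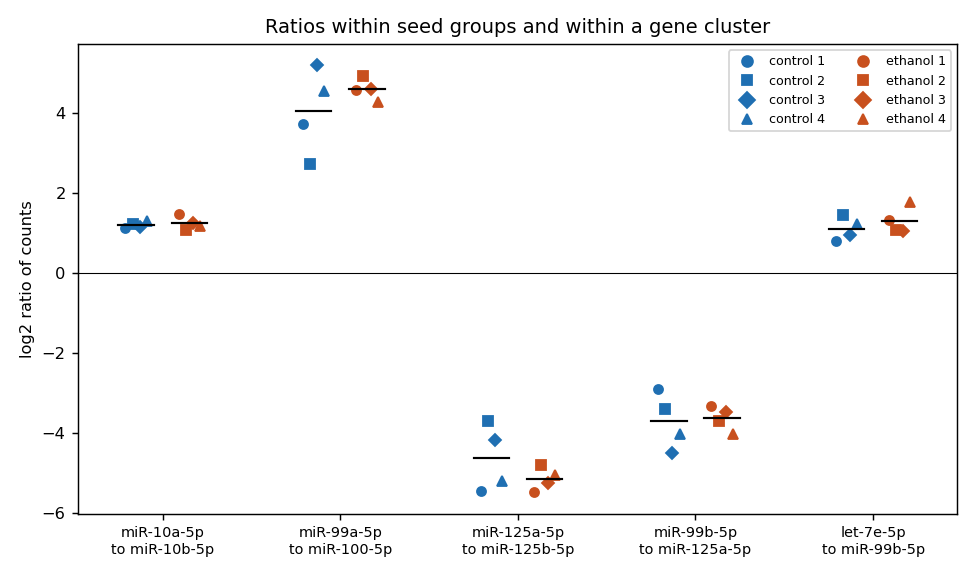
Log2 ratio of counts (vertical axis) for 3 pairs that share a seed and 2 pairs of the chromosome 17 cluster, by library, with control libraries in blue, ethanol libraries in orange and group means as bars. The groups overlap for every pair, miR-10a-5p to miR-10b-5p has the narrowest range, and control replicate 2 is the lowest library for miR-99a-5p to miR-100-5p.

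The partners of the other 2 clusters could be given only as values. mmu-let-7c-5p, the partner of mmu-miR-99a-5p, and mmu-let-7a-5p, named beside mmu-miR-100-5p because a let-7a gene lies in that cluster, were listed at 0 in control replicate 2. In the other 7 libraries they held 14438 to 58282 and 13705 to 71185 counts. The ratio of mmu-let-7c-5p to mmu-miR-99a-5p in those libraries was 58.3, 65.5 and 77.8 in controls and 82.1, 32.8, 56.0 and 61.1 in ethanol libraries. mmu-let-7a-5p, which also comes from other genes, stood at 979 to 2732 times mmu-miR-100-5p. Neither let-7 strand was called (edgeR adjusted p = 0.679 for mmu-let-7c-5p and 0.593 for mmu-let-7a-5p).

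Of 26 other strands, hairpins and cluster partners of these genes, 20 had a row, 7 could be tested and 1 was called, mmu-let-7e-5p, a let-7 strand of the chromosome 17 cluster. It held 105, 847, 116 and 90 counts in controls and 98, 62, 90 and 63 in ethanol libraries, and it fell by 2.44 ± 0.66 on the log2 scale (edgeR adjusted p = 0.0326). Without control replicate 2 its log2 fold change was -1.08 (adjusted p = 0.101). The call also ended without any 1 of the other 3 controls, without ethanol replicate 2 and without ethanol replicate 4 (adjusted p from 0.0615 to 0.185). The 3p strands were rare: mmu-miR-10a-3p held 9 to 53 counts a library, mmu-miR-10b-3p 10 to 37 and the other 5 with a row at most 8. Neither miR-10 3p strand was called (-0.52 ± 0.51, edgeR adjusted p = 0.482, and -0.60 ± 0.46, adjusted p = 0.366).

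The mmu-mir-10a hairpin was the only tested hairpin of the family. It held 68, 155, 103 and 58 counts in controls and 332, 170, 249 and 105 in ethanol libraries, with a log2 difference of 0.58 ± 0.42 that was not called (edgeR adjusted p = 0.337), where 2.63% of the 38 tested hairpins were called higher. A separate miRNA row under the precursor's name, mmu-mir-10a, was listed at 0 in 4 libraries and held 135 and 50 counts in controls 3 and 4 and 243 and 404 in ethanol replicates 2 and 3. Of the other miRNA rows in Hox clusters, the precursor-named mmu-mir-196a-1 was called higher (5.80 ± 0.73, edgeR adjusted p = 0.0112). It was the only one of the 226 tested miRNAs called higher. The mature strand mmu-miR-196a-5p was listed at 0 in 3 libraries and mmu-miR-196b-5p in 6. Such on-and-off values occurred in none of the 7 members, each of which had at least 13 counts in every library.

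For each member the nearest miRNAs were sought as those whose log2 ratio to it had the smallest SD over the 8 libraries, among the 108 miRNAs with a mean count of at least 100 and no 0. mmu-miR-10a-5p and mmu-miR-10b-5p were nearest to each other (SD 0.125, against a median of 0.855 over the miRNAs compared with mmu-miR-10a-5p), followed by mmu-miR-183-5p for both (0.249 and 0.298). These 2 strands differ by 1 base, and the part of read assignment in their likeness was not tested. mmu-miR-99a-5p and mmu-miR-125b-5p were likewise nearest to each other (0.282), followed by mmu-miR-10b-5p (0.322) and mmu-miR-135a-5p (0.287). They share the chromosome 16 cluster, but mmu-miR-125b-5p also comes from chromosome 9 and its counts cannot be divided between the copies. mmu-miR-99b-5p was nearest to its cluster partner mmu-let-7e-5p (0.308) and then mmu-miR-24-3p (0.497). mmu-miR-100-5p was nearest to mmu-miR-195a-5p (0.364) and mmu-let-7e-5p (0.390), and mmu-miR-125a-5p to mmu-miR-24-3p (0.448) and mmu-miR-181a-5p (0.464). The miRNAs nearest to the 3 last-named members include mmu-let-7e-5p, mmu-miR-24-3p and mmu-miR-195a-5p, which were among those raised in control replicate 2 (7.56, 3.33 and 3.06 times the next highest control). These are descriptions over all 8 libraries, so each SD holds the difference between the groups as well as the spread within them.

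Fragments of messenger RNAs were counted in the same libraries, so genes near the family and its reported targets could be followed. Of 9 host and neighbouring genes 6 could be tested and 1 was called higher, Hoxd8, a Hox transcription factor gene of the cluster that holds Mir10b. It had 22, 14, 26 and 17 counts in controls and 86, 119, 56 and 95 in ethanol libraries, and rose by 1.64 ± 0.38 on the log2 scale without overlap (edgeR adjusted p = 0.0287). Of all 6545 tested mRNA exon features 23.8% were called higher and 0.153% lower, and their median was 0.88. The other tested neighbours were not called. Hoxd3 was at 0.76 ± 0.42, Hoxb5 at 0.73 ± 0.39, Hoxb4 at 0.39 ± 0.37, Hoxd4 at 0.36 ± 0.38 and Hoxb3 at -0.55 ± 0.39. The host transcripts Mir99ahg (0 to 3 counts) and Spaca6 (2 to 5 counts) were too rare to test.

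Of 34 genes reported elsewhere as targets of the 3 seeds, 16 could be tested, and 5 were called higher (31.3%) and none lower, with a median of 0.78, near the values of all mRNA exon features. By seed the calls were 3 of 6 tested (9 listed) for miR-99 and miR-100, 2 of 4 (15 listed) for miR-125 and 0 of 6 (10 listed) for miR-10. Of all mRNA exon features 23.8% were called higher, and so few genes per seed allow no comparison between seeds. Akt1, a kinase of the insulin and mTOR pathway, had 12, 12, 14 and 15 counts in controls and 60, 240, 43 and 104 in ethanol libraries and rose by 2.61 ± 0.56 (edgeR adjusted p = 0.0287). Fkbp5, a co-chaperone of steroid receptors, rose by 2.15 ± 0.49 (0.0287), and the growth factor receptor genes Erbb2 and Erbb3 by 1.74 ± 0.52 (0.0404) and 1.94 ± 0.58 (0.0413), the last with overlapping groups. Igf1r, the insulin-like growth factor receptor, is named as the remaining one after its values were seen (1.48 ± 0.46, 0.0461). Mtor (1.10 ± 0.45, adjusted p = 0.106) and Mcl1, a survival factor (0.17 ± 0.35, adjusted p = 0.766), were not called. Lin28b was too rare to test, with 5, 6, 13 and 7 counts in controls and 4, 3, 4 and 2 in ethanol libraries. Its CPM were lower in ethanol libraries (0.346 to 0.754) than in controls (1.31 to 3.25), without overlap.

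All 5 called targets had their highest level in ethanol replicate 2, the library with the highest summed epithelial markers. Of 11 epithelial marker genes 5 could be tested (Crisp1, Adam7, Epcam, Krt8 and Krt18). These were also highest in that library and were called higher in ethanol libraries, where 23.8% of mRNA exon features were. Without that library Adam7 lost its call (edgeR adjusted p = 0.221). With any 1 of the 4 controls left out, none of the 6 markers then tested was called. Without ethanol replicate 2, 2 of the 16 target genes were called, Akt1 (1.69 ± 0.35) and Fkbp5 (1.37 ± 0.29), where 14% of mRNA exon features were. With any 1 of the 4 controls left out, edgeR called none of the 17 or 18 target genes then tested (7 or 8 at an unadjusted p under 0.05). The part of epithelial RNA in these values was not tested, and no site in these messenger RNAs was examined.

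Of 18 tested genes that make or use miRNAs, 3 were called higher (16.7%) and none lower, with a median of 0.43, against 23.8% called higher and a median of 0.88 over all mRNA exon features, so the list's share and median lay below those of messenger RNAs as a whole. Xpo5, the exporter of miRNA precursors from the nucleus, had 9, 24, 21 and 18 counts in controls and 101, 268, 39 and 57 in ethanol libraries and rose by 2.22 ± 0.60 (edgeR adjusted p = 0.0323). The chaperones Hspa8 (2.16 ± 0.56, adjusted p = 0.0298) and Hsp90ab1 (2.08 ± 0.54, 0.0298), which help load Argonaute, rose likewise. All 3 were also highest in ethanol replicate 2, and without it they remained called at 1.12, 1.31 and 1.34. Like that of Hoxd8, their calls ended when any 1 of the 4 controls was left out. Ago2, the Argonaute with slicing activity, was at 347 ± 98.9 CPM in controls and 343 ± 243 CPM in ethanol libraries (-0.02 ± 0.52, adjusted p = 0.985), and neither Drosha nor Dicer1, the processing enzymes, was called (0.02 ± 0.32 and 0.37 ± 0.36).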

How the data were processed

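Small RNA of 8 sperm samples was grouped by the titles into 4 control and 4 ethanol samples. Extraction used Trizol and library preparation a Qiaseq kit, per the labels' protocols. The authors deposited raw counts for annotated features as a single table of 1078961 rows. Aligner, counting rule, use of molecular identifiers and genome build are not given in the sources used here.

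Rows sharing a name and a type were added up, each piRNA cluster was represented by its largest transcript, and 45082 features held a count. The test was edgeR's quasi-likelihood test (version 4.0.16, R 4.3.3) on treatment group with no other term, after TMM scaling and filterByExpr (minimum count 10), with robust fitting. P-values were adjusted by Benjamini-Hochberg over the 13515 features tested, and 0.05 was the threshold. CPM used TMM-scaled library sizes. A standard error is the absolute log2 fold change divided by the square root of F. Ratios used counts plus 0.5 on the log2 scale and two-sided exact permutation tests. Intervals of shares are Wilson intervals at 95%, which cover counting error only. The fit was run on simulated counts that had the same spread for all features. That checks the code and not how well calls hold in these libraries. Python 3.11.15 with pandas 2.3.3, scipy 1.17.1 and matplotlib 3.10.9 was used for the rest.

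Within groups, pairs of libraries differed by a chi-square of 13.4 to 164 per degree of freedom, and none was treated as a duplicate. The members and lists were chosen with earlier results of these data known. Named were all 7 members, cluster partners, genes of each list past the threshold (at most 4 by smallest p) or otherwise the 3 most abundant, and the 2 nearest miRNAs of each member; others were named after their values were seen. Alternatives were other scalings, DESeq2 1.42.0, limma-voom (limma 3.58.1), other filters on low counts, a replicate block, miRNA rows alone, and libraries left out singly, by code style or, added after seeing the data, control and ethanol replicate 2 together and miRNA rows alone without control replicate 2.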

Additional observations from a re-analysis of the deposited data

Results flagged for a closer look

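In groups of 4 libraries the highest or lowest value was compared with its nearest neighbour, as the gap divided by the whole range of the group (Dixon's ratio), and taken up where it passed the 95% critical value for 4 values. Chance alone passes it in about 1 in 20 independent groups, and 5 of 38 groups passed here. The 38 groups were drawn from the same libraries and counts, so they are not independent and the 2 rates cannot be compared as a test. In controls, replicate 2 stood apart for the level of mmu-miR-99b-5p (80.7 CPM, gap over range 0.927) and of mmu-miR-100-5p (38.5 CPM, 0.854), and for the share of miRNA counts held by mmu-miR-99b-5p (0.0267%, 0.862). In ethanol libraries, replicate 2 stood apart for the share of miRNA counts held by mmu-miR-125a-5p (0.175%, 0.875) and by mmu-miR-125b-5p (4.90%, 0.902), while their levels in CPM did not stand apart there. Stromal and muscle miRNAs were highest in control replicate 2 and epithelial transcripts in ethanol replicate 2, and their part in these values was not tested.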

How the results depend on the processing

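The 4 called members were also called with DESeq2 size factors, with the replicate number as a block and with ethanol replicates 1 and 2 alone, and the direction of the 7 log2 fold changes was negative in all fits that held all features. Calls varied more: the number of members was 2 with library totals, 3 with a summed count of 10 or more and 3 with no filter, where mmu-miR-125b-5p lost its call (adjusted p = 0.0807 and 0.101), and 0 with limma-voom (5 at an unadjusted p under 0.05), with miRNA rows alone, with miRNA rows alone and control replicate 2 left out, and without the ethanol libraries coded POM. Of all features 1842 were called, against 1200 with DESeq2 size factors, 3144 with the DESeq2 Wald test (which called 5 members), 8 with limma-voom, 3451 with no filter, 818 without the libraries coded POM and 3317 without those coded POEM. Of miRNAs 90 were called, against 59 with library totals, 1 with limma-voom, 161 with no filter, 1 with miRNA rows alone, also without control replicate 2, 35 without POM and 155 without POEM. Leaving out each library in turn gave 3 to 3569 features, 1 to 158 miRNAs and 0 to 5 members.

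Deviations from the group means had correlations of 0.344, 0.210, -0.129 and -0.0206 between same-numbered libraries. Only for control replicate 2 was the same-numbered ethanol library the closest. These values do not settle whether the numbers pair libraries, and the labels state no pairing. With the replicate block 3294 features, 126 miRNAs and 4 members were called.

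With miRNA rows alone the sign turned for mmu-miR-10a-5p (0.71), mmu-miR-10b-5p (0.67), mmu-miR-99a-5p (0.29 ± 0.42) and mmu-miR-125b-5p (0.039 ± 0.31), the last 2 by less than their SE. With control replicate 2 also left out the sign turned for those 4 (0.58, 0.54, 0.25 and 0.11), mmu-miR-100-5p (0.045 ± 0.39) and mmu-miR-99b-5p (0.083 ± 0.44). Leaving out each library in turn gave log2 differences of -0.032 to 0.11 for mmu-miR-10a-5p to mmu-miR-10b-5p, -0.19 to 0.34 for mmu-miR-99b-5p to mmu-miR-125a-5p (-0.054 without the libraries coded POM), 0.10 to 0.93 for mmu-miR-99a-5p to mmu-miR-100-5p, -0.79 to -0.21 for mmu-miR-125a-5p to mmu-miR-125b-5p and 0.05 to 0.32 for mmu-let-7e-5p to mmu-miR-99b-5p. Shares of miRNA counts (ethanol minus control, percentage points) ranged over -0.00453 to 0.0413 for mmu-miR-99a-5p, -0.00643 to 0.000897 for mmu-miR-99b-5p, -0.00281 to 0.000404 for mmu-miR-100-5p and -0.380 to 0.418 for mmu-miR-125b-5p. Over all counts the difference was -0.0639 for mmu-miR-10a-5p, -0.0310 for mmu-miR-10b-5p, -0.00833 for mmu-miR-99a-5p and -0.354 for mmu-miR-125b-5p, where the share of miRNA counts had been higher. The cause of these changes was not tested. The levels of mmu-miR-100-5p (13 to 149 counts) and mmu-miR-99b-5p (18 to 312 counts) rest on the fewest counts.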
